A study of Ciona robusta with 6 samples.

Results

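Gata.a, Gata.b, Dlx.b and Tfap2-r.b are transcription factors of the ectoderm and epidermis, and their transcripts were followed in neurula embryos of Ciona robusta that had received Cas9 with a guide against Brachyury. They were chosen by identifier as a lineage far from the notochord: KH.L20.1 was taken as Gata.a, KH.S696.1 as Gata.b, KH.C7.770 as Dlx.b and KH.C7.43 as Tfap2-r.b. All 4 identifiers were present among the 15284 gene models of the deposited table. The table gives identifiers without names, and the RefSeq gene table used here matched 0 of them, so the names could not be checked against the data. For the same reason no epidermal marker could be read to check the label of the group.

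RNA was measured in whole embryos at Hotta stage 14, which had been kept in artificial seawater at 21 degrees Celsius. Unfertilized eggs were injected with crRNA, tracrRNA and Cas9 protein, with a guide against Brachyury in 3 samples (CrBra) and against GFP, the control, in 3 samples (CrGFP). Both groups therefore received Cas9 protein and a guide and were then fertilized. Each sample pooled 50 to 85 embryos, and the labels give neither the parents of the embryos nor the share of edited alleles. The design text calls the 3 replicates of each guide biological.

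In ascidian embryos the epidermis descends from the animal blastomeres, whereas the notochord arises from vegetal blastomeres in which Brachyury, a T-box transcription factor, is switched on. Gata.a is a GATA zinc finger factor supplied by the mother that acts with Ets factors on early ectodermal genes. Dlx.b is a homeodomain factor of the Distal-less type expressed in the early ectoderm, and Tfap2-r.b is an AP-2-related factor that works with Sox1/2/3 in setting ectodermal fates. Gata.b is the other GATA factor of the group.

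The libraries held 13191537 to 16094085 reads, and reads were detected for 13924 to 14067 gene models in each. Levels below are normalised read counts, that is, reads which the authors divided by 1 factor per library. The targeted gene, taken as KH.S1404.1, was at 950, 582 and 1058 in the controls of replicates 1, 2 and 3, and at 298, 205 and 313 in CrBra. It was lower in each CrBra library than in any CrGFP library. CrGFP and CrBra libraries of the same replicate number deviated alike from their group means, with correlations of 0.82 to 0.88 across models. Between different numbers the correlations were -0.57 to -0.30. Centring each group on its own mean forces negative values there once the same-number correlations are positive, so nothing is read from them. Because of the correlations within numbers, each level is given by number. In whole embryos, fewer cells of a type and less RNA per cell cannot be told apart. The counting tool and its strand setting are not given in the sources used here, so reads of overlapping or antisense genes cannot be told apart either.

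Neither GATA factor moved one way in all pairs. Gata.a, the maternal GATA factor, was at 278, 396 and 222 normalised counts in replicates 1, 2 and 3 of CrGFP, from 287, 390 and 218 reads. In CrBra it was at 179, 391 and 276, from 211, 350 and 270 reads. Both replicate 2 libraries were highest, CrBra replicate 1 was lowest, and the groups overlapped. The control mean was 299 ± 89.1 (SD, n = 3) and the CrBra mean 282 ± 106 (SD, n = 3). The CrBra library held 64.3% of its control's level in pair 1, with a 95% exact counting interval of 53.5% to 77%. It held 98.5% in pair 2 (85.1% to 114%) and 125% in pair 3 (104% to 150%). Pairs 1 and 3 thus departed from equality in opposite directions by more than counting error alone. Intervals here and below are Clopper-Pearson intervals on the reads of a pair and cover counting error only, not the variation between batches of embryos.

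Gata.b rested on the fewest reads of the 4 when the libraries are summed, with 12 to 166 in each, and varied most among them. Its normalised count was 54.3, 12.2 and 66.1 in replicates 1, 2 and 3 of CrGFP. The same replicates of CrBra held 141, 13.4 and 60.4. CrBra replicate 1 stood above the other libraries, both replicate 2 libraries held only 12 reads each, and the groups overlapped. Group means were 44.2 ± 28.3 (SD, n = 3) and 71.4 ± 64.3 (SD, n = 3). The CrBra library held 259% of its control's level in pair 1 (190% to 357%), 110% in pair 2 (45.1% to 267%) and 91.3% in pair 3 (63.1% to 132%). Only the interval of pair 1 excluded equality. In that pair 106 of 11953 tested models (0.887%) had a log2 difference at least as large in size as the 1.36 of Gata.b. For its differences in pairs 2 and 3 the share was 40.8% and 40.6%, and for those of the other factors it was 6.48% to 86.7%. The models in these shares were not matched for level.

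**Figure D1:**
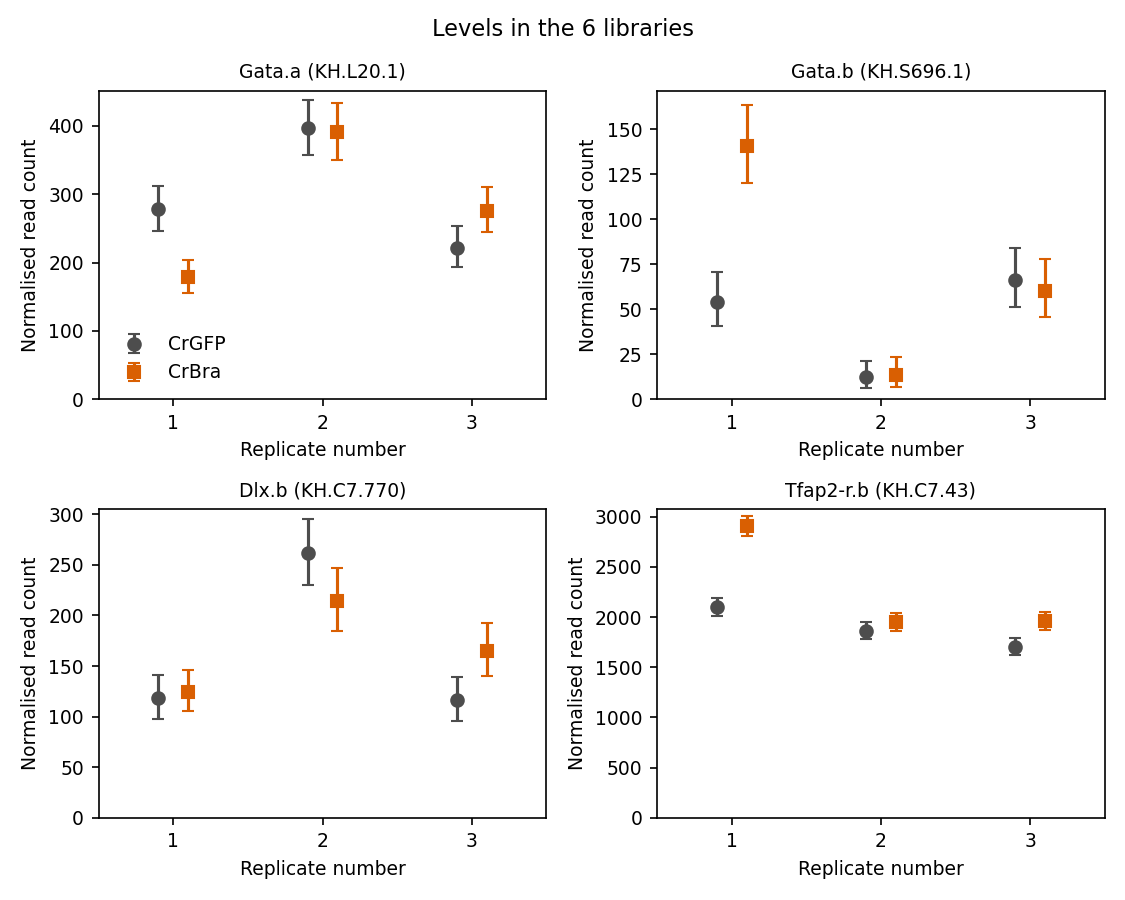
Normalised read count (linear axis from 0) of the 4 transcription factors in each library, by replicate number; circles are CrGFP, squares are CrBra, and bars are exact 95% Poisson intervals of the reads. Gata.a and Dlx.b were highest and Gata.b lowest in both libraries of replicate 2, and CrBra replicate 1 held the highest Gata.b (141) and Tfap2-r.b (2909) levels.

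The homeodomain factor Dlx.b was at 118, 261 and 116 normalised counts in replicates 1, 2 and 3 of CrGFP, and at 124, 214 and 165 in those of CrBra. Both replicate 2 libraries were highest and the groups overlapped. The control mean was 165 ± 83.2 (SD, n = 3) and the CrBra mean 168 ± 45 (SD, n = 3). Within the pairs the CrBra library held 105% (82.3% to 135%), 82% (67.7% to 99.3%) and 142% (111% to 182%) of its control's level. Pair 2 was below equality and pair 3 above it, each by more than counting error.

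Tfap2-r.b, the AP-2-related factor, rested on the most reads, 1675 to 3435 per library. Its normalised count was 2101, 1863 and 1705 in replicates 1, 2 and 3 of CrGFP, and 2909, 1947 and 1960 in those of CrBra. CrBra replicate 1 was the highest library, and the other CrBra libraries lay inside the range of the controls. Group means were 1889 ± 199 (SD, n = 3) and 2272 ± 551 (SD, n = 3). The CrBra library held 138% of its control's level in pair 1 (131% to 146%), 104% in pair 2 (97.8% to 112%) and 115% in pair 3 (108% to 123%). It was the only 1 of the 4 factors that was higher in CrBra in all 3 pairs, and none was lower in all 3. Among all 11953 tested models, 12.4% were higher and 11.1% lower in all 3 pairs, 23.6% in either direction. The groups overlapped in all 4 factors, as they did in most models: they were apart in 1.78% of tested models, with CrBra lower in 1.14% and higher in 0.644%.

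**Figure D2:**
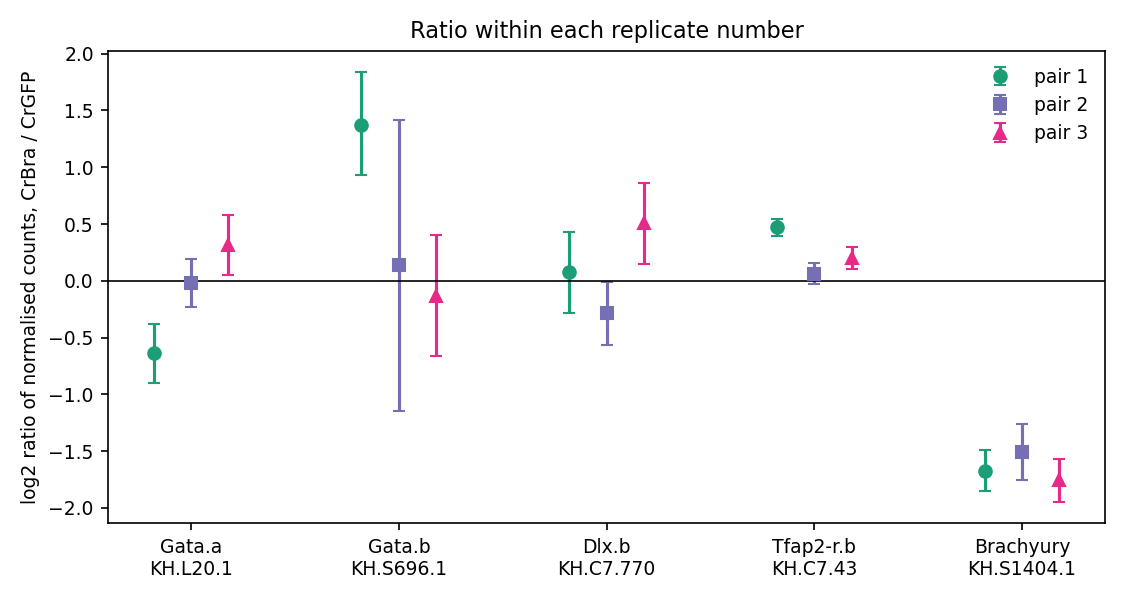
Log2 ratio of normalised counts, CrBra over CrGFP, within replicate numbers 1 (circles), 2 (squares) and 3 (triangles), for the 4 factors and KH.S1404.1, taken as Brachyury; bars are exact 95% counting intervals. The ratios of Gata.a run from 64.3% to 125% and those of Gata.b from 91.3% to 259%, while the ratios of KH.S1404.1 stay between 29.6% and 35.3%.

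The guide comparison was then tested across all gene models, and none of the 4 factors passed. In limma on log2(normalised count + 1), the log2 change from CrGFP to CrBra was -0.11 ± 0.35 (standard error) for Gata.a and 0.45 ± 0.96 for Gata.b. It was 0.10 ± 0.38 for Dlx.b and 0.24 ± 0.19 for Tfap2-r.b. The adjusted p was 1 for each of the 4. The 95% intervals of the fold were 0.525 to 1.63 for Gata.a, 0.285 to 6.54 for Gata.b, 0.57 to 2.01 for Dlx.b and 0.866 to 1.62 for Tfap2-r.b. The same limma test called 0 of 11953 models (0%), with 60 at an unadjusted p under 0.05, and edgeR called 0 and DESeq2 21. Exact permutation of the guide labels over the 6 libraries gave two-sided p-values of 0.7, 0.7, 0.8 and 0.4 in the same order, where 0.1 is the smallest possible.

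With the replicate number as a block, which compares libraries within a number, the intervals narrowed but still none of the 4 factors passed. The same fit called 48 of 11953 models (0.402%), 46 of them lower in CrBra (0.385%) and 2 higher (0.0167%). The fold intervals were 0.717 to 1.19 for Gata.a, 0.861 to 2.17 for Gata.b, 0.838 to 1.37 for Dlx.b and 1.05 to 1.33 for Tfap2-r.b. The adjusted p was 0.999 for Gata.a, Gata.b and Dlx.b and 0.68 for Tfap2-r.b. The unadjusted p of Tfap2-r.b in this limma fit was 0.0109, and 570 of 11953 models had one under 0.05. Exchange of the labels within the 3 pairs gave exact two-sided p-values of 0.75, 0.75, 0.75 and 0.25, the last being the smallest that 3 pairs allow. Over the 4 factors the median log2 change was 0.17, against 0.0061 over all tested models. The median change irrespective of sign was 0.18 against 0.06. The factors also varied more between pairs than the median model. The SD of the log2 difference over the 3 pairs was 0.48 for Gata.a, 0.80 for Gata.b, 0.39 for Dlx.b and 0.21 for Tfap2-r.b, against a median of 0.14. An SD as large was reached by 9.47%, 2.51%, 13.8% and 32.9% of tested models in the same order, without matching for level. The medians over the 4 factors are therefore descriptive only. A p above the threshold does not show that the levels were equal.

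The direction of the change rested on single libraries in 3 of the 4 factors. For Gata.a the unblocked log2 change turned to 0.11 without CrGFP replicate 2 and to 0.18 without CrBra replicate 1, and the blocked one to 0.15 without pair 1. For Gata.b it turned to -0.28 without CrGFP replicate 2 and to -0.30 without CrBra replicate 1, and the blocked one to -0.0023 without pair 1. For Dlx.b it turned to -0.09, -0.10 and -0.10 without CrGFP replicate 1, CrGFP replicate 3 and CrBra replicate 2, and the blocked one to -0.11 without pair 3. Tfap2-r.b stayed above 0 in these fits, at 0.05 without CrBra replicate 1 and at 0.13 with the block and without pair 1.

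**Figure D3:**
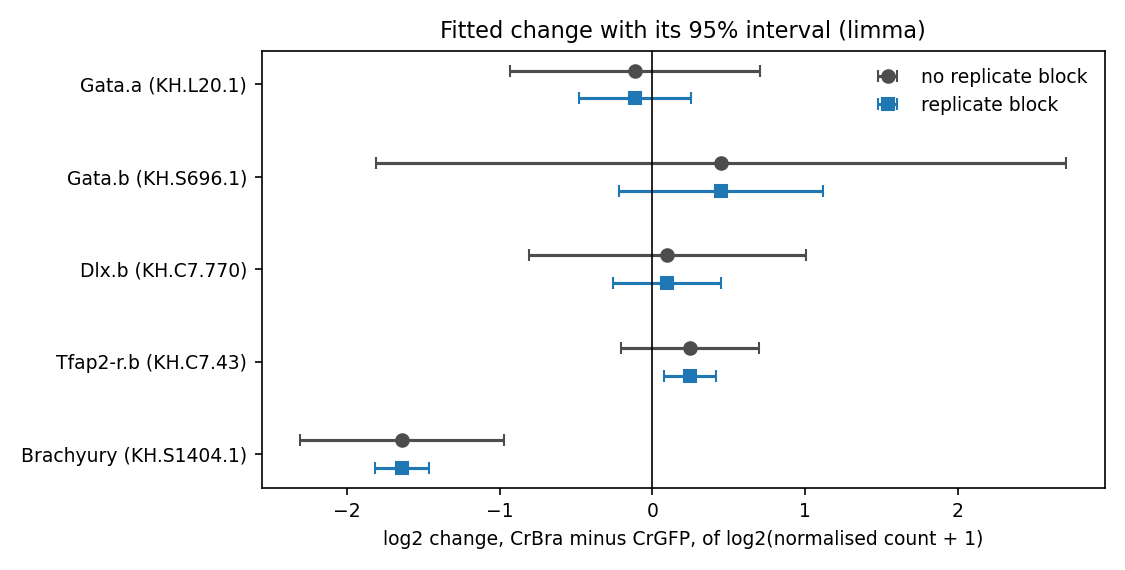
Fitted log2 change from CrGFP to CrBra with its 95% interval in limma, without (circles) and with (squares) the replicate number as a block, for the 4 factors and KH.S1404.1, taken as Brachyury. With the block the intervals of Gata.a, Gata.b and Dlx.b span 0, that of Tfap2-r.b runs from 0.07 to 0.42, and all 4 lie above that of KH.S1404.1 (-1.81 to -1.47). The intervals are not adjusted for the number of models tested.

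The change of each factor was set beside that of the targeted gene. KH.S1404.1 had a log2 change of -1.64, with an adjusted p of 8.89e-05 in limma with the block and of 0.608 without it. The log2 change of Gata.a exceeded it by 1.03, 1.48 and 2.07 in pairs 1, 2 and 3, and that of Gata.b by 3.03, 1.62 and 1.62. For Dlx.b the difference was 1.74, 1.21 and 2.26, and for Tfap2-r.b it was 2.14, 1.56 and 1.96. Each of the 4 was thus above the targeted gene in each pair, with means of 1.53, 2.09, 1.74 and 1.89. Only 0.36%, 0.293% and 0.125% of tested models lay at or below KH.S1404.1 in pairs 1, 2 and 3. Lying above it is therefore the common case and not particular to these factors. The exact permutation test within pairs gave a two-sided p of 0.25 for each, the smallest possible. A limma test of changes relative to KH.S1404.1 called 99.7% of all other tested models, but the 3 differences of KH.S1404.1 enter each of its tests, which makes its p-values too small, so nothing is read from this count.

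All 4 factors differed among the replicate numbers. Averaged over both guides, Gata.b differed 6.42-fold between the highest number, 1, and the lowest, 2, Dlx.b 1.94-fold and Gata.a 1.76-fold between the highest, 2, and the lowest, 1. Tfap2-r.b differed 1.35-fold, between numbers 1 and 3. On the log2 scale the range of Gata.b was 2.68, and it was 3.36 without CrGFP replicate 1 and 2.22 without CrBra replicate 1, where number 3 became the highest. That of Tfap2-r.b was 0.44, and it was 0.60 without CrGFP replicate 1 and 0.27 without CrBra replicate 1. All 4 passed the limma F test of the replicate number with the guide as a covariate, with adjusted p-values of 0.000532 for Gata.b, 0.00431 for Dlx.b, 0.0114 for Gata.a and 0.00547 for Tfap2-r.b. Of all tested models 73.4% passed, so passing is the common case. The call of Gata.a was lost without CrGFP replicate 2 (adjusted p = 0.0619) or CrBra replicate 2 (adjusted p = 0.111), and that of Dlx.b without CrGFP replicate 2 (adjusted p = 0.0853). Without another single library they passed, as did Gata.b and Tfap2-r.b without any one library.

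The replicate numbers did not move the 4 factors in the same direction. Against the mean of numbers 1 and 3, number 2 was 1.67-fold higher in Gata.a and 1.82-fold higher in Dlx.b. In Gata.b the log2 difference was -2.45, a lower level in number 2, and in Tfap2-r.b it was -0.16. In number 2, 476 of 11953 tested models (3.98%) were lower by at least 1 log2 unit and 94 (0.786%) by at least 2. These models were not matched for level. The size of the difference in Gata.b is loosely determined, because it had 12 reads in each replicate 2 library. The range of Gata.b among the numbers was reached by 2.12% of tested models, that of Dlx.b by 23.1%, that of Gata.a by 30.2% and that of Tfap2-r.b by 63.5%. KH.S1404.1 also had its lowest level in number 2, in both groups. What the numbers share is not given in the labels, and its part in these levels was not tested.

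**Figure D4:**
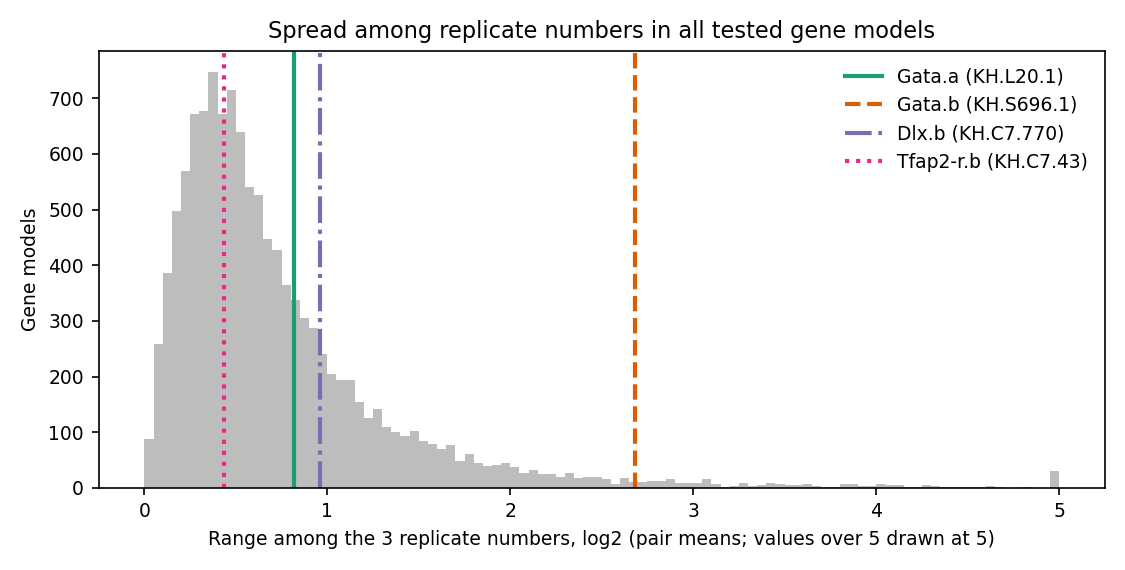
Number of tested gene models (vertical axis) by their range among the 3 replicate numbers in log2 units, from means over both guides; vertical lines mark the 4 factors. Tfap2-r.b (0.44) lies below the median of all models (0.56), Gata.a (0.82) and Dlx.b (0.96) lie above it, and Gata.b (2.68) lies in the upper tail.

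The 4 factors were also compared by the shape of their levels over the 6 libraries, as the root mean square difference of log2 levels after each model was centred. Gata.a and Dlx.b were the most alike of the 4, at 0.23, and Gata.b differed from both by 1.64. Among the 11952 other tested models, the profile closest to Gata.a was that of KH.C14.76, at 0.047, where the median model lay at 0.49. The closest to Tfap2-r.b was KH.C8.101 (0.044, median 0.36), and the closest to Dlx.b was KH.S1269.2 (0.083, median 0.52). For Gata.b the closest was KH.C1.499, at 0.21 against a median of 1.26. KH.C1.499 held 16.5, 2.03 and 16.3 normalised counts in CrGFP and 28.8, 3.35 and 15.3 in CrBra, and its replicate 2 values are no higher than the level of 3 reads. Models chosen as closest share the pattern by that choice. These profiles share libraries and the strong difference among numbers, and no annotation of these models was used here.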

How the data were processed

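RNA-seq values of 6 libraries were used. Per the file headers, the authors deposited a signal, the count normalised to library size, and regularized log2 values, each in 6 columns, and 0 columns belonged to other samples. TopHat2 (2.9.8b) and DESeq (1.8.1) are named in the submitters' processing notes. The genome build is not given in the sources used here. All positive signal values were whole multiples of 1 read within 0.01 reads (100%), so whole reads were recovered. A count of 0 allows up to 3 reads, 0.186 to 0.227 CPM, for counting error only.

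Testing was limited to the 11953 models that reached 10 in 3 or more libraries (3331 were left out). The test was limma's (3.58.1, R 4.3.3, trended variance) on log2(value + 1), two-sided, with Benjamini-Hochberg adjustment across these models and a threshold of 0.05. Alternatives were the replicate block, pseudocounts of 0.5 and 5, no filter or 5 CPM, TMM scaling, regularized log values, edgeR 4.0.16 and DESeq2 1.42.0 on recovered reads, and leaving out libraries or pairs. The scripts were tested on simulated data.

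The deviations of same-numbered CrGFP and CrBra libraries from their group means correlated at 0.82 to 0.88 across models. Because all exceeded 0.1, the numbers were treated as pairs, which the labels do not state. Relative to KH.S1404.1, limma shares the 3 differences of that model among all tests, so its p-values are too small and are not printed.

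Besides the 4 factors and KH.S1404.1, also an identity taken from general knowledge, the text names for each factor the 1 model with the closest profile. The factors, the lists and the tests were chosen with earlier results of these data known. Other ectodermal genes could not be counted because no table used here pairs names with identifiers, and no sequence is shown for that reason.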

Additional observations from a re-analysis of the deposited data

How the results depend on the processing

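None of the 4 factors passed the guide comparison in any setting run, with or without the replicate block. Without the block, 0 models were called in limma under every filter, pseudocount, scaling and left-out library and in edgeR, and 21 in DESeq2. With the replicate block, limma called 48 models, 46 with a pseudocount of 0.5, 54 with 5, 27 with no filter, 33 with at least 5 CPM, 46 after TMM scaling and 53 on regularized log values. Blocked edgeR called 57 and blocked DESeq2 58. Without each pair, blocked limma called 25 to 100 (88 without replicate 1), with a single residual degree of freedom among libraries. What causes these counts to move was not tested. The 5 CPM filter left Gata.b out.

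Over tools, pseudocounts, filters and scalings the 4 factors kept their direction. Over the fits that left out a library or a pair, the log2 change ranged from -0.38 to 0.18 for Gata.a, from -0.30 to 1.35 for Gata.b, from -0.11 to 0.48 for Dlx.b and from 0.05 to 0.34 for Tfap2-r.b. The turned values were 0.11, 0.18 and 0.15 for Gata.a, -0.28, -0.30 and -0.0023 for Gata.b, and -0.09, -0.10, -0.10 and -0.11 for Dlx.b. The number of models that differed among replicate numbers was 8730 to 8848 under other settings and 6719 to 8686 without 1 library, from 8772. Without 1 library the range among numbers was 0.67 to 1.21 for Gata.a, with its call lost at 0.89 and 0.75. For Dlx.b it was 0.67 to 1.24, with its call lost at 0.67, for Gata.b 2.22 to 3.36 and for Tfap2-r.b 0.27 to 0.60. In these fits the lone library of a number is assumed to vary like the others. With 12 reads in each replicate 2 library, Gata.b is limited by depth there.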

Other observations

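After the values were seen, the difference between the guides within a pair was set beside the difference between the other replicate numbers, which shares no library with it. In pair 1 the log2 difference between the guides was -0.64 in Gata.a, 1.36 in Gata.b, 0.07 in Dlx.b and 0.47 in Tfap2-r.b. From number 3 to number 2 the same factors differed by 0.67, -2.22, 0.77 and 0.06, with opposite signs in the GATA factors and the same sign in Dlx.b and Tfap2-r.b. In pair 3 the guides differed by 0.32, -0.13, 0.50 and 0.20 in the same order. From number 1 to number 2 the factors differed by 0.82, -2.68, 0.96 and -0.38, with the same sign in all but Tfap2-r.b. In pair 2 the guides differed by -0.02, 0.13, -0.28 and 0.06 in that order. From number 3 to number 1 the factors differed by -0.15, 0.46, -0.19 and 0.44, with the same sign in all 4. The 4 factors thus shared a relation of signs in pair 2 but not in pairs 1 and 3, and none held in every pair. Whether signs agree or oppose depends on the order in which the other numbers are taken, which is arbitrary. In pair 2 only the counting interval of Dlx.b excluded equality, so the signs of the other factors there lay within counting error. No conclusion is drawn from these signs.

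Across the 11953 tested models Pearson's r was -0.17 and Spearman's rho -0.28 in pair 1. In pair 3 they were 0.14 and 0.16, and in pair 2, against number 1 minus number 3, they were -0.03 and -0.04. The 630 models at least 2-fold higher in number 2 than in number 3 had a median log2 difference of -0.08 between the guides in pair 1, and the 519 at least 2-fold lower had one of 0.10. These weak correlations are across models of the same libraries, which are not independent replicates, and they only describe these 6 libraries.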
